A study of Mus musculus with 10 samples.

Results

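Beta-catenin, the complex that destroys it and the TCF factors that it activates were followed through 10 genes. The list was fixed by name: Ctnnb1 (beta-catenin), Apc, Axin1, Gsk3a, Gsk3b, Csnk1a1 and Btrc (destruction complex and its ubiquitin ligase), and Tcf7l1, Tcf7l2 and Lef1 (transcription factors). All 10 are among the 53167 genes listed in the count table, and 9 passed the filter on low counts together with 14406 others. RNA was taken from primary epithelial cells of wild-type mouse mammary gland, kept in medium with serum. The BGN group was 5 samples given biglycan protein (BGN, a matrix proteoglycan with leucine-rich repeats) at 100 ng/mL, and the Control group was 5 samples without added protein. The labels give no duration of stimulation, no animal age or strain, and no word on whether each replicate is an animal or culture of its own. The p-values therefore refer to the spread among these 10 samples, part or all of which may be technical. The question behind the comparison was whether biglycan acts through WNT signalling.

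In the absence of a WNT signal, the scaffold proteins Axin and APC hold beta-catenin next to the kinases CK1-alpha and GSK3, which phosphorylate it so that the F-box protein beta-TrCP can mark it for the proteasome. A WNT signal stops this, beta-catenin reaches the nucleus, and it binds TCF and LEF proteins that otherwise keep target genes silent. This control acts on the protein, so transcript counts show how much of each part the cells are set up to make and not how much beta-catenin is active. In epithelia beta-catenin has a second role, as the link between cadherins and alpha-catenin at adherens junctions. In the mammary gland the pathway is known for its part in the basal layer and in duct growth.

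Libraries held 18292624 to 21820560 counts. The groups did not separate as wholes: the first 2 principal components held 18.5% and 15.4% of the variance, BGN replicate 5 was extreme on the first (21.0) and Control replicate 5 on the second (-26.9). Control replicate 5 also had the lowest mitochondrial share, 1.155%, against 1.802% to 2.269% in the other 9 libraries. Ribosomal protein genes took 4.72% of Control replicate 1 and 4.64% of Control replicate 5, against 4.01% to 4.18% in the other 8. All 11 of 11 epithelial markers were detected, and their summed level was 9647 to 10109 CPM (counts relative to the library total) in BGN and 9671 to 11397 CPM in Control. Lymphocyte markers were nearly absent (7 of 8 at 0 in all libraries, summed level at most 0.0495 CPM in BGN and 0.0516 CPM in Control), and 8 endothelial markers summed to 6.49 to 7.40 CPM in BGN libraries, against 7.20 to 7.76 CPM in Control libraries, with Cldn5 at 0. The 7 adipocyte markers summed to 9.41 to 12.1 CPM in BGN libraries, against 8.15 to 13.5 CPM in Control libraries, nearly all of it Lpl. The 9 myeloid markers summed to 384 to 419 CPM in BGN libraries, against 381 to 452 CPM in Control libraries, almost all of it Cd14. Cd68 averaged 1.69 CPM in BGN libraries, against 1.62 CPM in Control libraries. Csf1r averaged 1.34 CPM in BGN libraries, against 1.19 CPM in Control libraries. Ptprc, Lyz2 and Itgam averaged under 1 CPM in both groups, and Adgre1, C1qa and C1qb were at 0. The 10 fibroblast markers summed to 1981 to 2557 CPM in BGN libraries, against 1527 to 2387 CPM in Control libraries, of which Postn gave 2032 ± 223 CPM in BGN libraries, against 1729 ± 326 CPM in Control libraries (mean ± SD, n = 5 in each group here and throughout). Fn1 stood at 102 ± 11.3 CPM in BGN libraries, against 107 ± 10.6 CPM in Control libraries, and Pdgfra at 39.5 ± 2.27 CPM in BGN libraries, against 38.0 ± 6.79 CPM in Control libraries. Col1a1 averaged 4.64 CPM in BGN libraries, against 4.21 CPM in Control libraries, and Dcn 2.65 CPM in BGN libraries, against 2.62 CPM in Control libraries, while each of the other 5 averaged under 1 CPM in both groups. Whether these markers came from other cell types, and the part of such cells in the results below, was not tested.

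By the length of the longest annotated transcript, the 9 genes that were detected spanned a 77.0-fold range of transcript level, and beta-catenin stood at the top. Levels between genes are given here as CPM divided by the length of the longest annotated transcript in kilobases (CPM per kb), with TMM-scaled CPM. Ctnnb1 averaged 480 ± 24.0 CPM per kb in BGN and 475 ± 24.8 CPM per kb in Control, a level above that of 99.3% of the tested genes with a known length. Csnk1a1, which encodes the priming kinase CK1-alpha, followed at 285 ± 3.39 CPM per kb in BGN and 281 ± 5.64 CPM per kb in Control. The other parts of the destruction complex were far scarcer than these. Gsk3a and Gsk3b, which encode the GSK3 kinases, stood at 37.4 ± 1.24 and 30.9 ± 1.61 CPM per kb in BGN, and at 37.1 ± 2.21 and 28.9 ± 1.52 CPM per kb in Control. The scaffold genes Axin1 and Apc stood at 19.4 ± 1.03 and 13.7 ± 0.504 CPM per kb in BGN, and at 20.2 ± 1.35 and 13.0 ± 0.936 CPM per kb in Control. Btrc, which encodes beta-TrCP, was the lowest of the complex, at 7.73 ± 0.292 CPM per kb in BGN and 8.25 ± 0.864 CPM per kb in Control.

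The order of levels held in all 10 libraries for every pair of neighbours but Tcf7l2 and Axin1, which stood in that order in 9 of 10. The ranges over the 10 libraries overlapped for that pair and for Gsk3b and Tcf7l2, and not for the other neighbours. Where length was taken as all annotated exons of a gene merged, Csnk1a1 came to 181 CPM per kb, Btrc to 4.04 CPM per kb and Tcf7l2 to 19.6 CPM per kb over the 10 libraries. Tcf7l2 and Axin1 then changed places, and so did Btrc and Tcf7l1. Btrc was then the lowest of the 9, and their range was wider, since Ctnnb1 stayed at 478 CPM per kb.

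**Figure D1:**
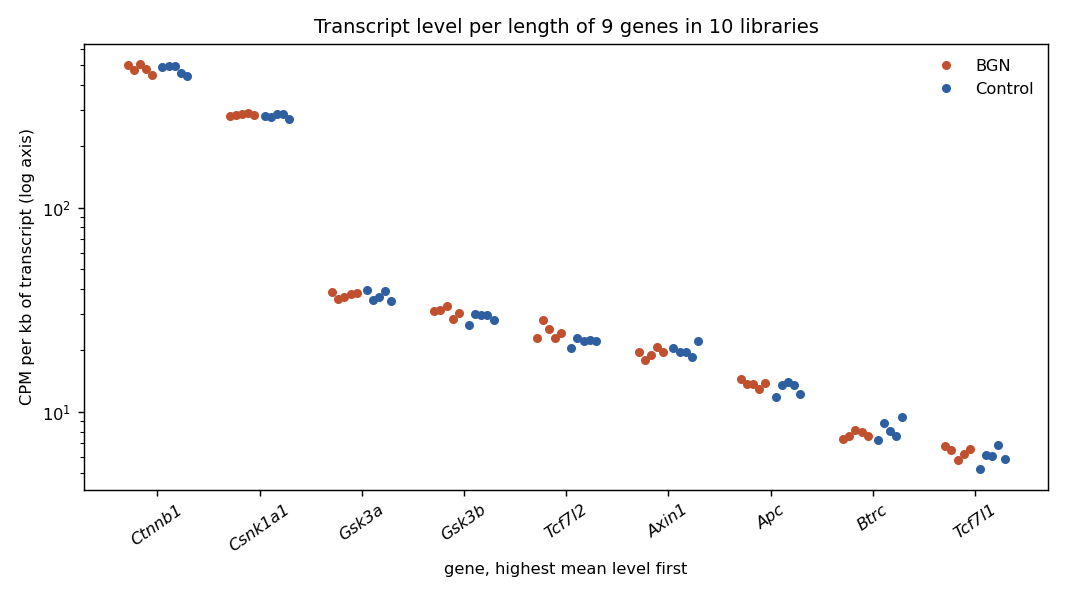
Transcript level per length of the 9 detected genes, in CPM per kb on a log axis, with 1 point per library, BGN libraries on the left and Control libraries on the right of each gene. Ctnnb1 and Csnk1a1 lie far above the other 7 genes, and BGN and Control points of a gene lie over the same range for most genes.

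Close relatives filled some of these steps at other levels. Fbxw11, which encodes the second beta-TrCP protein, averaged 34.3 CPM per kb over the 10 libraries, against 7.99 CPM per kb for Btrc. Axin2, the feedback-induced relative of Axin1, averaged 0.759 CPM per kb, against 19.8 CPM per kb for Axin1. Among the junction partners of beta-catenin, those of highest CPM were also abundant. Cdh1 (E-cadherin) averaged 199, Ctnna1 (alpha-catenin) 164 and Jup (plakoglobin, a relative of beta-catenin) 150 CPM per kb. Each of these lay below Ctnnb1 at 478 CPM per kb. Not all junction genes were abundant: the catenin gene Ctnnd2 averaged 1.13 CPM per kb. Of 12 junction genes 10 passed the filter on low counts.

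Among the TCF genes Tcf7l2 was the main one and Lef1 was not detectable beyond a single read. Tcf7l2, whose product can activate or repress WNT targets, averaged 24.8 ± 2.14 CPM per kb in BGN and 22.1 ± 0.98 CPM per kb in Control. Tcf7l1, whose product is known mostly as a repressor, averaged 6.37 ± 0.384 CPM per kb in BGN and 6.06 ± 0.596 CPM per kb in Control. With Tcf7 included as the remaining member of the family, Tcf7l2 made up 62.3 ± 3.02% of the family's CPM per kb in BGN and 59.9 ± 1.97% in Control. Tcf7 made up 21.6 ± 2.55% in BGN and 23.6 ± 2.06% in Control, and Tcf7l1 16.1 ± 1.26% in BGN and 16.4 ± 0.942% in Control. Lef1, whose product is a mostly activating partner of beta-catenin, had 0 reads among 100453394 counts in BGN and 1 read among 96232635 counts in Control, in replicate 5. A count of 0 allows a level of up to 0.0299 CPM in BGN (3 counts over the group, counting error only). The same 3 counts would be 0.0312 CPM in Control, but that limit is for 0 reads and Control had 1. No upper limit is given for Control, and no fold change is given. Lef1 failed the filter on low counts and was not tested with it. With no filter beyond 1 count it entered the test at an unadjusted p of 0.26 (edgeR), but a single read cannot decide between the groups.

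None of the 9 tested genes passed the test between BGN and Control: 0 of 9 met a threshold of 0.05 on the p adjusted over 14415 genes (Benjamini-Hochberg; edgeR, quasi-likelihood), and 0% of all genes tested passed. Estimates were above 0 for 7 of the 9 and below 0 for 2, beside 48% above 0 over all genes. At an unadjusted p under 0.05 there were 2 of 9, Tcf7l2 and Gsk3b, beside 4.81% of all genes (694 genes). That number rested on single libraries: it was 1 of 9 without BGN replicate 1, 2 or 3 or Control replicate 1 or 5, without both replicates 5 and with no robust estimation, and 3 of 9 without Control replicate 3. DESeq2 and limma-voom also called 0 genes of the whole table, with 662 and 801 genes at an unadjusted p under 0.05. All 9 genes overlapped in CPM between the groups, where 0.728% of all genes tested did not. For 9 of 9 the 95% interval of the fold change stayed inside 1.3-fold up or down, a bound chosen after the values were seen, which held for 74.1% of all genes tested and for 89.2% of those that averaged at least 50 counts (11965 genes). In bulk RNA a change in the number of cells that express a gene and a change in RNA per cell cannot be told apart.

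**Figure D2:**
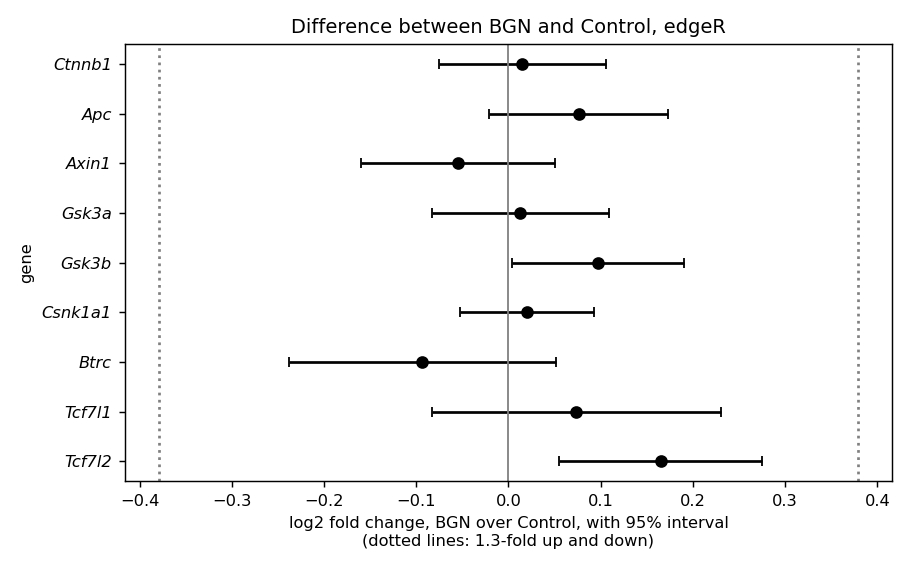
Log2 fold change of BGN over Control for the 9 tested genes with its 95% interval (edgeR), with dotted lines at 1.3-fold up and down. All intervals lie inside the dotted lines, and those of Gsk3b and Tcf7l2 do not include 0 before adjustment.

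The beta-catenin transcript had an estimate close to 0. Ctnnb1 stood at 1816, 1719, 1828, 1725 and 1613 CPM in BGN replicates 1 to 5, and at 1770, 1792, 1798, 1647 and 1605 CPM in Control replicates 1 to 5. The lowest library of each group was replicate 5, and the groups overlapped over nearly their whole range. The log2 fold change was 0.0149 ± 0.0438 (SE, 95% interval -0.0758 to 0.106, edgeR adjusted p = 0.988). Its sign depended on single libraries, from -0.00899 without Control replicate 5 to 0.0423 without BGN replicate 5.

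Csnk1a1 was the steadiest of the 9 genes. It stood at 1150, 1161, 1172, 1185 and 1158 CPM in BGN, and at 1150, 1139, 1170, 1171 and 1116 CPM in Control. The log2 fold change was 0.0201 ± 0.0352 (SE, edgeR adjusted p = 0.984), and 0.0102 without Control replicate 5. Its standard deviation within groups was 0.0238 on the log2 scale, against a median of 0.0727 over the 28 genes of like CPM (within 0.25 on the log2 scale) and 0.00957 from counting error alone.

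The 2 GSK3 genes gave different estimates, with neither called. Gsk3b stood at 259.7, 261.8, 273.2, 237.0 and 252.3 CPM in BGN, and at 220.3, 251.6, 247.3, 246.3 and 235.2 CPM in Control. Of the BGN libraries 4 lay above the highest Control library and BGN replicate 4 lay among the lower Control libraries. The log2 fold change was 0.0966 ± 0.0449 (SE, 95% interval 0.00375 to 0.19, unadjusted p = 0.0421, adjusted p = 0.945, edgeR). Gsk3a was at 84.5 ± 2.80 CPM in BGN libraries, against 83.8 ± 4.99 CPM in Control libraries, with a log2 fold change of 0.0127 whose sign turned without Control replicate 2 (-0.00335) or 5 (-0.0093). Within a library, where scaling plays no part, the log2 ratio of Gsk3b to Gsk3a CPM averaged 1.60 ± 0.109 in BGN libraries and 1.52 ± 0.138 in Control libraries, with overlap. Exons of Gsk3a overlap those of an antisense gene that was given 1606 counts over the 10 libraries, and whether counting used strand is not known. Per kilobase, Gsk3b stood at 0.827 times Gsk3a in BGN and 0.78 times in Control.

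The scaffold genes Apc and Axin1 had estimates on opposite sides of 0. Apc stood at 184.7, 176.0, 175.7, 166.5 and 177.2 CPM in BGN, and at 152.0, 173.3, 180.1, 172.8 and 156.8 CPM in Control. Control replicates 1 and 5 were the lowest of the 10, and the other 3 Control libraries lay among those of BGN. The log2 fold change was 0.076 ± 0.0469 (SE, edgeR adjusted p = 0.945), and 0.0438 without Control replicate 1. Axin1 was at 73.3 ± 3.91 CPM in BGN libraries, against 76.2 ± 5.08 CPM in Control libraries, with a log2 fold change of -0.0548 (edgeR adjusted p = 0.967). Without BGN replicate 2 it was -0.0271 and without Control replicate 5 it was -0.0162.

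Apc and Gsk3b have the longest transcripts of the 10 genes, 12.81 and 8.303 kb, and long transcripts as a class had estimates above 0. Of 705 other tested genes with a transcript of at least 8 kb, 561 lay above and 144 below 0, with a median log2 fold change of 0.0532, beside -0.00403 over all genes tested. Among those 705 genes 37.0% had an estimate at or above that of Apc and 25.1% one at or above that of Gsk3b. Their mean deviation per library was lowest in Control replicate 1, at -0.122 on the log2 scale, where Apc and Gsk3b were also at their lowest. This length class was chosen after the values were seen, and its part in the estimates of Apc and Gsk3b was not tested.

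Btrc had the lowest estimate of the 9. It stood at 22.46, 23.10, 24.60, 24.20 and 23.06 CPM in BGN, and at 22.18, 26.81, 24.59, 23.08 and 28.54 CPM in Control. Control replicates 2 and 5 lay above the other 8 libraries, which were close together in both groups. The log2 fold change was -0.0933 ± 0.070 (SE, 95% interval -0.238 to 0.0516, edgeR adjusted p = 0.957), and -0.0428 without Control replicate 5.

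Tcf7l2 had the smallest p of the 9 genes, with 45 genes of the whole table below it. It stood at 85.2, 104.6, 94.2, 85.7 and 90.4 CPM in BGN, and at 76.0, 85.9, 82.2, 83.3 and 82.7 CPM in Control. All 5 BGN libraries lay above the Control median and 3 above every Control library, while BGN replicates 1 and 4 lay just under Control replicate 2. The log2 fold change was 0.165 ± 0.053 (SE, 95% interval 0.0553 to 0.275, unadjusted p = 0.00494, adjusted p = 0.945, edgeR), from 0.116 to 0.192 when single libraries were left out. Tcf7l1 stood at 19.4 ± 1.17 CPM in BGN libraries, against 18.4 ± 1.81 CPM in Control libraries, with a log2 fold change of 0.0732 (edgeR adjusted p = 0.973), 0.0251 without Control replicate 1 and 0.123 without Control replicate 4. The log2 ratio of Tcf7l2 to Tcf7l1 CPM within a library averaged 2.24 ± 0.160 in BGN libraries and 2.16 ± 0.101 in Control libraries, with overlap.

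**Figure D3:**
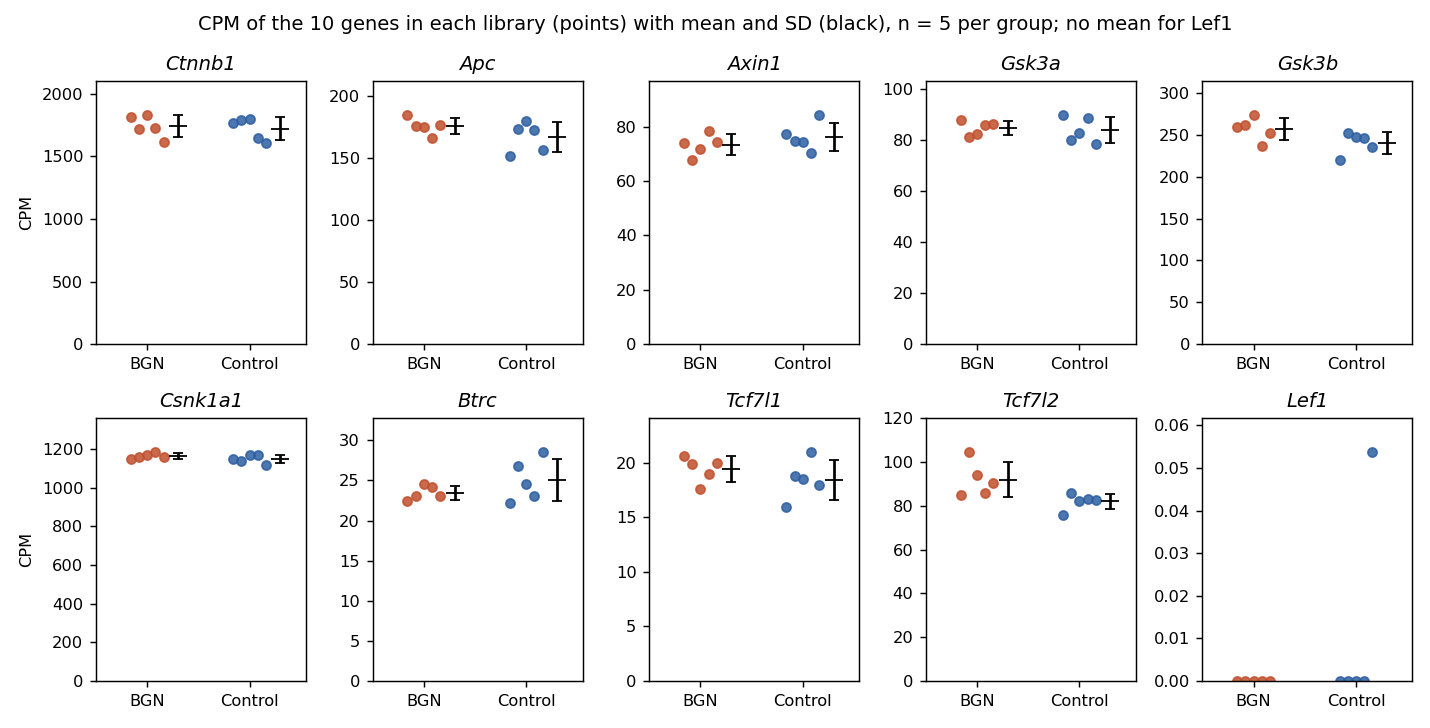
CPM of each of the 10 genes per library (points; BGN left, Control right, replicates 1 to 5 from left to right) with group mean and SD in black, on axes that start at 0. The groups overlap in every panel, and Lef1 has a single read, in Control replicate 5.

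From library to library, pairs of these genes were about as often correlated below 0 as above it. Of the 36 pairs among the 9 genes, 17 had a correlation of log2 CPM above 0 and 19 below 0 over the 10 libraries, with a median Pearson r of -0.019. Gsk3a and Btrc ran opposite to each other (Pearson r = -0.834, permutation p = 0.00123, 0.0443 after Benjamini-Hochberg adjustment over 36 pairs; Spearman rho = -0.891, permutation p = 0.0012, adjusted 0.0432; two-sided). Without Control replicates 1 and 5, the 2 libraries farthest from the median of Gsk3a, r was -0.705, and with group means removed it was -0.866. The correlation was weaker among the 5 BGN libraries (r = -0.414) than among the 5 Control libraries (r = -0.972), a difference that was not tested. Apc and Gsk3b ran together (r = 0.83, permutation p = 0.00263, adjusted 0.0473), but the rank correlation did not pass (rho = 0.745, permutation p = 0.0171, adjusted 0.16), and r was 0.519 without Control replicates 1 and 5. With group means removed r was 0.776, and it was 0.614 among the 5 BGN libraries and 0.913 among the 5 Control libraries. No other pair passed by either measure. These 2 pairs were named after all 36 were computed. The share of pairs of other tested genes that reach such values was not computed, so whether these 2 are unusual is not known. The permutations treat the 10 libraries as exchangeable, although Control replicates 1 and 5 stood apart in their share of ribosomal protein genes. The libraries share a preparation protocol and differ in depth. The relation of these pairs to library quality was not tested beyond the values given for replicates 1 and 5 of Control.

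**Figure D4:**
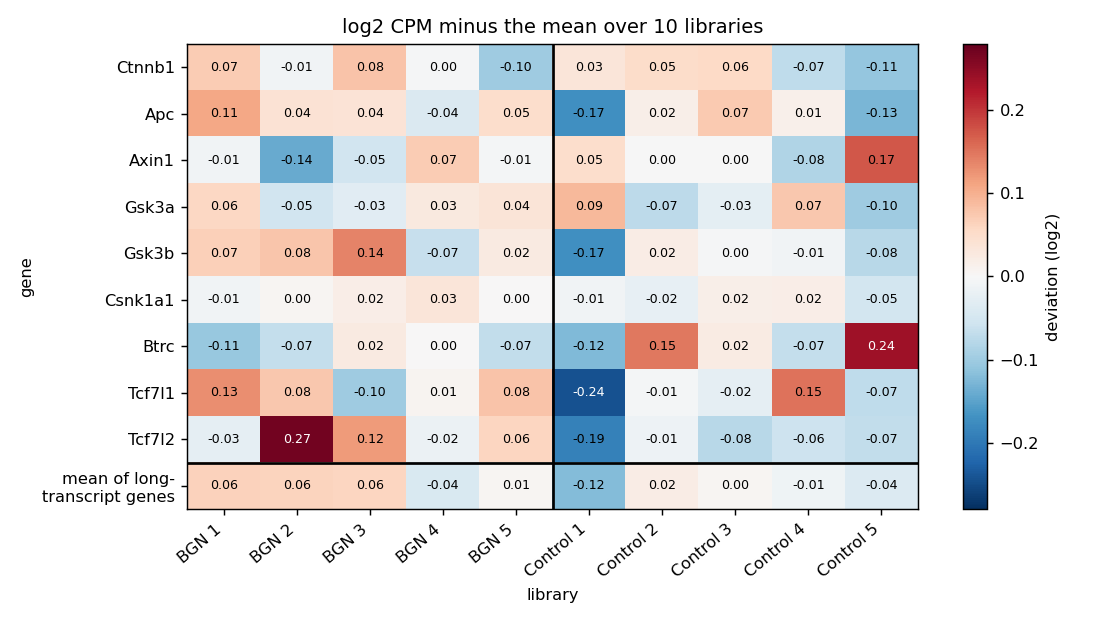
Deviation of each gene's log2 CPM from its mean over the 10 libraries (colour and printed value), BGN libraries left of the black line and Control libraries right of it, with the mean over 705 long-transcript genes in the bottom row. Control replicate 1 is low for Apc, Gsk3b, Tcf7l1 and Tcf7l2, Control replicate 5 is high for Axin1 and Btrc, and Csnk1a1 stays near 0 throughout.

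Replicate spread pooled over both groups exceeded counting error for all 9 genes. Within BGN alone this held for 8 of 9, since Btrc varied by 0.0544 there on the log2 scale, against 0.0661 from counting error, and by 0.15 in Control. The pooled standard deviation of log2 CPM within groups ran from 0.0238 (Csnk1a1) to 0.119 (Tcf7l1), against 0.00782 (Ctnnb1) to 0.0748 (Tcf7l1) from counting error alone. Apart from Csnk1a1, whose spread exceeded that of 3.57% of its 28 genes of like CPM, these values lay between the percentiles 42.8 (Gsk3a) and 78.4 (Tcf7l2) of genes of like CPM.

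For each of the 9 genes, the tested genes of most similar pattern over the 10 libraries were found among the 11965 that averaged at least 50 counts, by Pearson correlation of log2 CPM. They were mt-Rnr1 for Ctnnb1 (r = 0.966), Mysm1 for Apc (0.98), Zbtb22 for Axin1 (0.961), Timm23 for Gsk3a (0.966) and Atxn7 for Gsk3b (0.967). They were Stt3a for Csnk1a1 (0.966), Surf1 for Btrc (0.958), Yipf6 for Tcf7l1 (0.951) and Acvr2a for Tcf7l2 (0.972). The second in rank were Nars2 for Ctnnb1, Setd2 for Apc, Alg1 for Axin1, Sco1 for Gsk3a and Septin7 for Csnk1a1. They were Gna14 for Btrc, Zfp185 for Tcf7l1 and Mtm1 for Tcf7l2, and r ran from 0.917 to 0.969 over these 8. These are the highest values in a search over 11965 genes in 10 libraries, and they are a description only.

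Genes that work beside the 10 in the cell were not called either. Of 27 other scaffold, kinase and degradation genes all 27 were tested and 0 passed in either direction, beside 0% of all genes tested. Among the 27, 16 had estimates above and 11 below 0, beside 48% above 0 over all genes tested. The log2 fold changes ran from -0.22 to 0.642, with a median of 0.0201, beside -0.00403 over all genes tested. At an unadjusted p under 0.05 (edgeR) there were 3 of 27, beside 4.81% of all genes. The highest CPM, not corrected for length, belonged to Tnks2 (a tankyrase, which marks Axin for removal), with 544 ± 24.9 CPM in BGN libraries, against 519 ± 18.7 CPM in Control libraries. Skp1, an adaptor of the ligase that holds beta-TrCP, had 397 ± 13.2 CPM in BGN libraries, against 398 ± 15.8 CPM in Control libraries. Ppp2ca, which encodes a catalytic subunit of the phosphatase PP2A, had 325 ± 9.14 CPM in BGN libraries, against 328 ± 13.1 CPM in Control libraries. The smallest p values belonged to Siah1a, a ubiquitin ligase gene, at 37.8 ± 1.72 CPM in BGN libraries, against 33.8 ± 1.88 CPM in Control libraries (log2 fold change 0.161), and to Dvl1, a Dishevelled gene, at 45.7 ± 1.64 CPM in BGN libraries, against 49.9 ± 3.56 CPM in Control libraries (-0.126), both with an adjusted p of 0.945 by edgeR. Fbxw11 stood at 139 ± 4.58 CPM in BGN libraries, against 137 ± 6.15 CPM in Control libraries (log2 fold change 0.0261, and 0.00262 without Control replicate 5). Axin2 stood at 2.98 ± 0.412 CPM in BGN libraries, against 3.48 ± 0.543 CPM in Control libraries (log2 fold change -0.22, edgeR adjusted p = 0.948).

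Cofactors of TCF and beta-catenin, 24 of 24 tested, had 0 calls, beside 0% of all genes tested. Of their estimates 9 lay above and 15 below 0, beside 48% above 0 over all genes. Their median log2 fold change was -0.00832, beside -0.00403 over all genes. Tle5, a Groucho-related gene, had the highest CPM, at 228 ± 8.35 CPM in BGN libraries, against 237 ± 13.5 CPM in Control libraries. The chromatin remodeller gene Smarca4 followed at 220 ± 12.4 CPM in BGN libraries, against 224 ± 13.8 CPM in Control libraries, and the coactivator gene Bcl9l at 217 ± 11.4 CPM in BGN libraries, against 216 ± 12.5 CPM in Control libraries. Bcl9, the relative of Bcl9l, stood at 60.2 ± 1.41 CPM in BGN libraries, against 55.6 ± 3.33 CPM in Control libraries (log2 fold change 0.113), and the acetyltransferase gene Ep300 at 153 ± 9.75 CPM in BGN libraries, against 143 ± 8.07 CPM in Control libraries (0.0958), both with an adjusted p of 0.945 by edgeR. Tcf7 was at 21.3 ± 3.13 CPM in BGN libraries, against 21.5 ± 1.95 CPM in Control libraries, a log2 fold change of -0.0144 whose sign turned without single libraries (up to 0.0529 without BGN replicate 3).

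Of 12 junction genes 10 were tested, with 0 calls, beside 0% of all genes tested. Their estimates lay above 0 for 8 and below 0 for 2, beside 48% above 0 over all genes. The median was 0.0464, beside -0.00403 over all genes. No list was tested as a set. Cdh1 stood at 895 ± 10.2 CPM in BGN libraries, against 867 ± 26.2 CPM in Control libraries. Ctnna1 stood at 611 ± 10.4 CPM in BGN libraries, against 613 ± 16.9 CPM in Control libraries, and Jup at 485 ± 15.3 CPM in BGN libraries, against 477 ± 13.6 CPM in Control libraries. Ctnnd2, a catenin of the p120 family, had the smallest p at 7.44 ± 1.33 CPM in BGN libraries, against 5.98 ± 1.24 CPM in Control libraries (log2 fold change 0.322, edgeR adjusted p = 0.945), and the log2 fold change was 0.203 without BGN replicate 5. Among 26 known targets of beta-catenin 17 were tested, with 0 calls, beside 0% of all genes tested. Of the targets 10 had estimates above and 7 below 0, beside 48% above 0 over all genes. Their median was 0.00308, beside -0.00403 over all genes. Cd44 had the smallest p among them, at 677 ± 17.9 CPM in BGN libraries, against 627 ± 23.2 CPM in Control libraries (log2 fold change 0.111, edgeR adjusted p = 0.945). Axin2 and Tcf7, given above, were counted among the targets too, with log2 fold changes of -0.22 and -0.0144. Sox9 stood at 392 ± 17.1 CPM in BGN libraries, against 373 ± 19.4 CPM in Control libraries (0.0716, and 0.0454 without Control replicate 1), and Ccnd1 (cyclin D1) at 508 ± 30.3 CPM in BGN libraries, against 507 ± 20.9 CPM in Control libraries (0.00308, a sign that turned with library totals as the scaling).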

How the data were processed

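RNA libraries were poly-A selected and made with the NEBNext Ultra kit, per the labels' protocols. The deposited table holds raw counts of reads by gene symbol for each sample. For reads and alignment the submitters' processing notes list cutadapt 1.9.1 and FastQC, HISAT2 2.2.1 with GRCm39, HTSeq and DESeq2. The annotation release or strandedness is not given in the sources used here. Exons of Ctnnb1, Gsk3a, Tcf7l1 and Lef1 overlap those of another annotated gene, so their reads may not be fully separable. Over the 10 libraries the overlapping gene was given 750 counts for Ctnnb1, 1606 for Gsk3a and 1 for Tcf7l1. The gene that overlaps Lef1 is not listed in the count table. Transcript lengths came from GENCODE M21 (GRCm38), matched by symbol for 97.7% of tested genes; no coordinates are given.

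Genes passing filterByExpr (14415) were TMM-scaled and tested with edgeR 4.0.16 (R 4.3.3), quasi-likelihood with robust estimation, treatment as the single term, Benjamini-Hochberg adjusted. The SE of a log2 fold change is its size divided by the square root of F. Fold changes are BGN over Control. Marker sums were scaled by library totals. Correlations used 100000 permutations. Libraries differed beyond sampling noise (chi-square per degree of freedom at least 2.43). The steps were tested on simulated data. Alternatives covered scaling, filter, DESeq2 1.42.0, limma 3.58.1 (voom), the robust option, a replicate block, the threshold and left-out libraries. Named genes were the 10, and by rule in each companion list the 3 of highest mean CPM and the 2 of smallest p, the 2 of most similar pattern per gene, and Axin2, Tcf7 and Fbxw11. A gene of similar pattern and a gene called without the filter are not reported here. The genes, lists and rules were chosen with earlier results of these data known.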

Additional observations from a re-analysis of the deposited data

How the results depend on the processing

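None of the 9 tested genes, and no gene of the 4 companion lists, passed under any of the settings tried: 3 other scalings, 2 other filters, DESeq2, limma-voom, no robust estimation, the replicate block, and leaving out 1 library or both replicates 5. Over all genes, 3 passed with no filter beyond 1 count (among them Oas3 and Kctd12, named after their values were seen) and 0 in every other setting, an adjusted p under 0.1 included. Directions held in all 20 settings for 7 of the 9 genes. Ctnnb1 turned without single libraries, over a range from -0.00899 to 0.0423, and Gsk3a likewise (-0.0093 to 0.0369) and without both replicates 5 (-0.0158). Of the 11 companion genes given with a fold change, 8 held their direction throughout. Fbxw11 turned without both replicates 5 (-0.0123) and Tcf7 without single libraries (-0.084 to 0.0529). Ccnd1 turned with library totals only (-0.000839), with limma-voom (-0.0121), without both replicates 5 (-0.0317) and without single libraries (-0.024 to 0.0282). The cause of these turns was not tested. With length as merged exons 4 of the 10 genes changed rank by level, by construction of the length. The labels do not say whether replicate numbers pair the samples. Deviations of BGN and Control libraries of the same number correlated at -0.0198 to 0.201, and pairing was not tested. With the replicate block 0 genes were called, and 825 had an unadjusted p under 0.05, beside 694 without the block (edgeR). With the block the median log2 fold change of the 9 genes was 0.0203 and their smallest adjusted p was 0.735 (edgeR). At this depth Lef1 had a level near 0 in both groups, with no fold change.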
